A study of Homo sapiens with 12 samples.

Results

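The histone genes described here are protein-coding genes whose current symbol starts with H1-, H2AC, H2BC, H3C or H4C and that appeared in either of the gene tables of the study. They number 28, of 73 such genes annotated in RefSeq, and all counts of histone genes are over these. Of the 28, 25 were in the table on overexpression of ATOH8 and 7 in the table on RSL3, with 4 in both. Those tables hold 1424 and 1810 genes. All libraries came from DU145, a human prostate cancer cell line. The groups were oeATOH8, cells made to overexpress the basic helix-loop-helix transcription factor ATOH8, against oeCTRL, their overexpression control, and RSL3, wild-type cells given this inhibitor of GPX4, an enzyme that detoxifies lipid peroxides, for 24 h, against DMSO, wild-type cells given the solvent. Each group had 3 libraries, 12 in all, and the tables share no control libraries. The dose of RSL3, the vector and whether the overexpressing cells were a single clone are not given in the sources used here.

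Histones package DNA: H2A, H2B, H3 and H4 form the core around which DNA is wound, and linker histone H1 binds where the DNA enters and leaves it. Most of their genes are replication-dependent: they lie in clusters, are expressed mainly in S phase, and yield mRNAs that end in a conserved stem-loop, bound by the protein SLBP, in place of a poly(A) tail. Whether the libraries were made from poly(A)-selected RNA, which favours polyadenylated forms, is not given in the sources used here.

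The stem-loop is shown first because it is the element that sets most of these mRNAs apart. A perfect 6-base stem around a 4-base loop was found in the GENCODE v29 transcripts of 21 of the 28 genes, in 4 spellings, written here 5′ to 3′ with the stem in capitals and the loop in lower case.
Stem-loop of H2AC6, H2AC18, H2BC21, H3C14 and others, 14 genes in all: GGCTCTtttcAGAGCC
Stem-loop of H2BC4, H2BC5 and H3C8: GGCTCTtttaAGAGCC
Stem-loop of H4C9, H4C14 and H4C15: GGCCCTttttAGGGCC
Stem-loop of H4C8: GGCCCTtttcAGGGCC
In 16 of the 21 genes, the annotated transcript went on for at least 100 bases past the stem-loop. The other 7 genes had no match. For 6 of them the annotated transcript is no longer than a coding sequence, with 642 bases for H1-2, 681 for H1-5, 381 for H2BC12, 411 for H3C2 and H3C4 and 312 for H4C12, so the missing match says nothing about those genes. H2BC11, whose longest annotated transcript has 950 bases, is the seventh.

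The promoters are shown because many histone genes share motifs there. RefSeq promoters (GRCh38.p14) were found for all 28 genes, and the 250 bases before each start were searched on both strands. The motifs were the CCAAT box (CCAAT), the TATA box (TATAAA), the octamer bound by POU factors (ATTTGCAT) and the E-box (CANNTG), the general site of helix-loop-helix factors. The last 120 bases before the start are printed 5′ to 3′ for 5 genes, with matches to the first 3 motifs, on either strand, in capitals. They are chr6:27146859-27146978, minus strand, for H2BC12; chr1:149886683-149886802, minus strand, for H2BC21; chr6:26124052-26124171, plus strand, for H2AC6; chr6:26056471-26056590, minus strand, for H1-2; and chr6:26285535-26285654, minus strand, for H4C8.
H2BC12: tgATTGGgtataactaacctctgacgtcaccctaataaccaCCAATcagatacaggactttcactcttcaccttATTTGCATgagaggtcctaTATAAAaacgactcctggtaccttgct
H2BC21: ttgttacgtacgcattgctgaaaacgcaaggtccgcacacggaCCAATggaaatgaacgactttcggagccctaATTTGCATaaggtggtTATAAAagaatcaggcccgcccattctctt
H2AC6: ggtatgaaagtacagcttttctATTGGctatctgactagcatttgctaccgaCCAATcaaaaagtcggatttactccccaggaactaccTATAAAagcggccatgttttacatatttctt
H1-2: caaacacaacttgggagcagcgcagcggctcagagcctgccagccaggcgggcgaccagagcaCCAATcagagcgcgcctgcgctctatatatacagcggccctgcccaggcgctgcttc
H4C8: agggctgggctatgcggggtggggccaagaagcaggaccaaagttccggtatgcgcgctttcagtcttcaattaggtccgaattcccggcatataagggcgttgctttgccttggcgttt
The H2BC12 and H2BC21 stretches hold all 3 motifs, H2AC6 the CCAAT and TATA boxes, H1-2 a CCAAT box and H4C8 none of them. Among the 25 genes that were lower in oeATOH8 cells, 21 had a CCAAT box (84%, against 33% of all 27305 promoters) and 17 a TATA box (68% against 11.1%). The octamer was in 9 of the 25 (36% against 1.66%), which were 7 of 9 H2B genes and 2 of 16 others. An E-box was in 14 of the 25 (56%), against 62.2% of all promoters. Over the 67 annotated histone genes with a promoter sequence, the shares were 83.6%, 64.2%, 38.8% and 62.7% in the same order of motifs. Those 67 include the 25, which favours likeness, and the unlisted genes were not compared alone. Near-identical copies, such as H4C14 and H4C15, were counted as separate genes. A match is a string of letters and does not show that a factor binds.

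The oeATOH8 cells were compared with oeCTRL cells to see what raising ATOH8 does to expression. All 25 histone genes described from that table fell in oeATOH8 cells against oeCTRL cells. The falls ran through every class, with 1 H1, 5 H2A, 9 H2B, 5 H3 and 5 H4 genes, and ranged from a log2 fold change of -2.64 to one of -1.03. All 25 genes had oeATOH8 and oeCTRL libraries that did not overlap. The test was edgeR's quasi-likelihood test with Benjamini-Hochberg adjustment over the listed genes, two-sided, called under 0.05. The table holds only genes that the authors called changed, so that passing is the common state: 58.6% of its genes were called lower, and 58.3% had groups that did not overlap in that direction. Counted against every annotated gene and the assembled loci up to their highest number (75204), 23 of the 25 were called lower (46.3% of listed genes). H3C10 (edgeR adjusted p = 0.0668) and H4C12 (edgeR adjusted p = 0.0695) missed the threshold. The median log2 fold change was -1.53 over the 25 histone genes, against -1.10 over all 1424 listed genes and -1.41 over the 835 lower ones. With relative log expression scaling over the listed genes, which raised the median of all of them by 0.91, 17 of the 25 were still called lower, and all 25 stayed on the lower side. Annotated histone genes outside the table were not assessed.

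**Figure D1:**
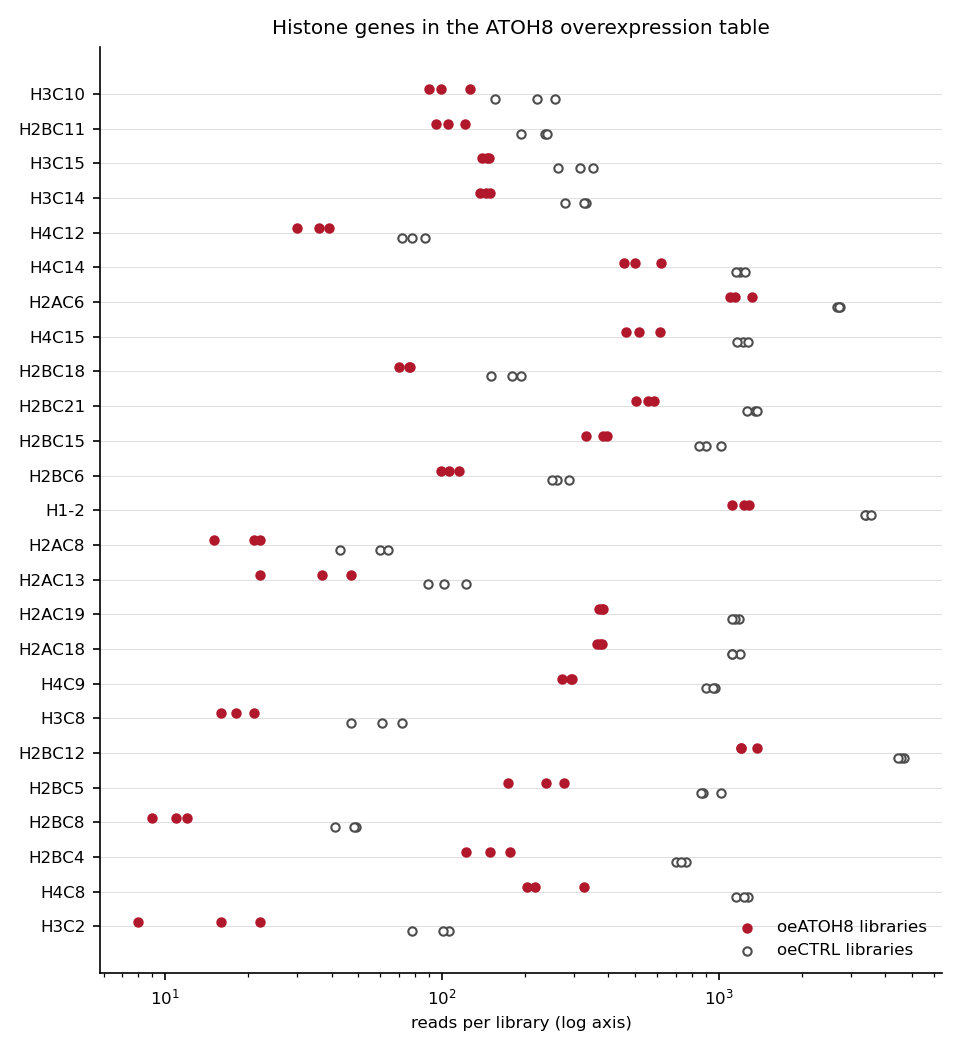
Reads per library (horizontal log axis) for 25 histone genes in the ATOH8 table, with oeATOH8 libraries as filled red points and oeCTRL libraries as open grey points, 3 each, ordered by log2 fold change. In each of the 25 rows the oeATOH8 points lie to the left of the oeCTRL points, from H3C10 at the top to H3C2 at the bottom.

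Among the linker histones, H1-2 encodes a replication-dependent H1 that is widely expressed (chr6:26055740-26056470). It had 1120, 1237 and 1292 reads in oeATOH8 libraries, against 3402, 3378 and 3543 reads in oeCTRL libraries. All oeATOH8 libraries lay below all oeCTRL libraries, with a log2 fold change of -1.53 (SE 0.08, edgeR adjusted p = 1.30e-08).

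The H2B genes were the largest class, with 9 of 19 annotated genes in the table. H2BC12 (chr6:27138293-27146858) had 1208, 1206 and 1381 reads in oeATOH8 libraries, against 4667, 4576 and 4450 reads in oeCTRL libraries (log2 fold change -1.88, SE 0.07, edgeR adjusted p = 1.51e-09). H2BC4 (chr6:26113170-26123926) had 177, 122 and 149 reads in oeATOH8 libraries, against 702, 760 and 734 reads in oeCTRL libraries (log2 fold change -2.33, SE 0.14, edgeR adjusted p = 3.82e-08). In both genes the spread within a group was small beside the gap between the groups. H2BC5 had 277, 173 and 238 reads in oeATOH8 libraries, against 878, 864 and 1017 in oeCTRL libraries (log2 fold change -2.04). H2BC8 was sparse, with 12, 9 and 11 reads in oeATOH8 libraries, against 49, 48 and 41 in oeCTRL libraries (log2 fold change -2.13). The other 5 H2B genes had log2 fold changes from -1.35 to -1.09. H2BC6 had 115, 99 and 106 reads in oeATOH8 libraries, against 287, 261 and 251 in oeCTRL libraries. H2BC15 had 394, 382 and 332 reads in oeATOH8 libraries, against 1019, 898 and 852 in oeCTRL libraries. H2BC21 had 558, 585 and 503 reads in oeATOH8 libraries, against 1355, 1267 and 1373 in oeCTRL libraries. These log2 fold changes were -1.35 for H2BC6 and H2BC15 and -1.31 for H2BC21. H2BC18 had 77, 76 and 70 reads in oeATOH8 libraries, against 150, 179 and 194 in oeCTRL libraries (log2 fold change -1.26). H2BC11 had 121, 105 and 95 reads in oeATOH8 libraries, against 236, 194 and 240 in oeCTRL libraries (log2 fold change -1.09).

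Of the 17 annotated H2A genes, 5 were in the table, with log2 fold changes between -1.65 and -1.23. H2AC6, next to H2BC4 on chromosome 6, had 1103, 1145 and 1317 reads in oeATOH8 libraries, against 2688, 2752 and 2717 in oeCTRL libraries (log2 fold change -1.23). H2AC18 had 374, 364 and 379 reads in oeATOH8 libraries, against 1194, 1121 and 1115 in oeCTRL libraries. H2AC19 had 380, 369 and 382 reads in oeATOH8 libraries, against 1182, 1143 and 1116 in oeCTRL libraries. These near-identical copies on chromosome 1 gave nearly the same values, with log2 fold changes of -1.65 and -1.64, and are not independent measurements. H2AC13 had 37, 47 and 22 reads in oeATOH8 libraries, against 102, 89 and 122 in oeCTRL libraries (log2 fold change -1.58). H2AC8 had 15, 22 and 21 reads in oeATOH8 libraries, against 60, 43 and 64 in oeCTRL libraries (log2 fold change -1.55). In H2AC13 and H2AC8 the standard error was 0.33 each, so their order within the class is not resolved.

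The H3 genes in the table were 5 of 13. H3C2 (chr6:26031589-26032099) had the lowest log2 fold change of the family, -2.64 (SE 0.37, edgeR adjusted p = 4.21e-05), from 8, 22 and 16 reads in oeATOH8 libraries, against 106, 78 and 101 in oeCTRL libraries. H3C8 had 21, 18 and 16 reads in oeATOH8 libraries, against 47, 61 and 72 in oeCTRL libraries (log2 fold change -1.74). Both H3C2 and H3C8 were measured from few reads, and H3C2 is separated from H2BC4 and H4C8 by less than its standard error. H3C14 had 145, 137 and 149 reads in oeATOH8 libraries, against 332, 327 and 278 in oeCTRL libraries (log2 fold change -1.15). H3C15 had 146, 140 and 148 reads in oeATOH8 libraries, against 316, 352 and 264 in oeCTRL libraries (log2 fold change -1.13). H3C14 and H3C15 are again copies with shared sequence. H3C10 had 90, 99 and 126 reads in oeATOH8 libraries, against 220, 156 and 256 in oeCTRL libraries (log2 fold change -1.03).

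Of the 15 annotated H4 genes, 5 were in the table. H4C8 (chr6:26285126-26285534) had 217, 204 and 326 reads in oeATOH8 libraries, against 1159, 1274 and 1231 in oeCTRL libraries (log2 fold change -2.33, SE 0.15, edgeR adjusted p = 6.07e-08). H4C9 had 273, 294 and 296 reads in oeATOH8 libraries, against 967, 904 and 953 in oeCTRL libraries (log2 fold change -1.74). All H4 genes encode the same protein or nearly so, and these 2 genes had the lowest log2 fold changes of the class. H4C14 had 501, 457 and 622 reads in oeATOH8 libraries, against 1194, 1153 and 1248 in oeCTRL libraries (log2 fold change -1.22). H4C15 had 516, 464 and 616 reads in oeATOH8 libraries, against 1224, 1164 and 1282 in oeCTRL libraries (log2 fold change -1.23). H4C12 had 39, 30 and 36 reads in oeATOH8 libraries, against 78, 87 and 72 in oeCTRL libraries (log2 fold change -1.21). Of these, H4C14 and H4C15 are copies, and H4C12 is the sparsest.

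Histone genes are so alike that reads can be divided between copies, and how the authors counted such reads is not given in the sources used here. Sequence was compared in windows of 75 bases over the GENCODE transcripts. Of the 28 genes, 8 shared at least 90% of their windows with another gene, 17 shared under 10% and 11 shared none. The shared ones included the pairs H2AC18 and H2AC19, H3C14 and H3C15, and H4C14 and H4C15, as well as H4C12, all of whose windows occur in H4C11, and H3C4. H2AC13 shared 60.1% of its windows with H2AC14, and H2BC12 shared 42.4% with H2BC12L. The 15 lower genes with under 10% of windows shared had a median log2 fold change of -1.55 and the same range as all 25. H4C15 overlaps H2AC19 and H3C15, and H2BC12 overlaps H4C9, on opposite strands. Strandedness is not given in the sources used here, so reads of these partners may not be separable. With each of the 3 pairs counted once, the 22 lower genes summed to 6882, 6833 and 7503 reads in oeATOH8 libraries, against 20892, 20470 and 20924 in oeCTRL libraries. The sum was 3.00-fold lower in oeATOH8 cells (log2 ratio -1.59). By class the log2 ratios of the sums were -1.53 for H1, -1.35 for H2A, -1.71 for H2B, -1.29 for H3 and -1.68 for H4. These sums hold only genes that the authors called changed and that were lower, so that choice fixed their direction. Histone genes outside the table are not in them, so they do not measure total histone mRNA.

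By position, the chromosome 6 cluster (chr6:25726063-27893891) holds 55 annotated histone genes, of which 17 were in the ATOH8 table and all 17 fell. The chromosome 1 cluster (chr1:149782689-149887965) holds 11, of which 8 were in the ATOH8 table and all 8 fell. That table holds only genes called changed, and 58.6% of all its genes were called lower. None of those 11 was in the RSL3 table, against 6 of the 55 on chromosome 6. The other protein-coding genes between the chromosome 6 histone genes number 20, and only BTN3A1 and BTN3A3, butyrophilins that act in recognition by gamma delta T cells, were in the ATOH8 table. Both fell, with log2 fold changes of -1.54 (SE 0.10) and -1.52 (SE 0.17), near the median of -1.41 over all 835 lower genes. Whether position plays a part was not tested. None of the 20 was in the RSL3 table.

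**Figure D2:**
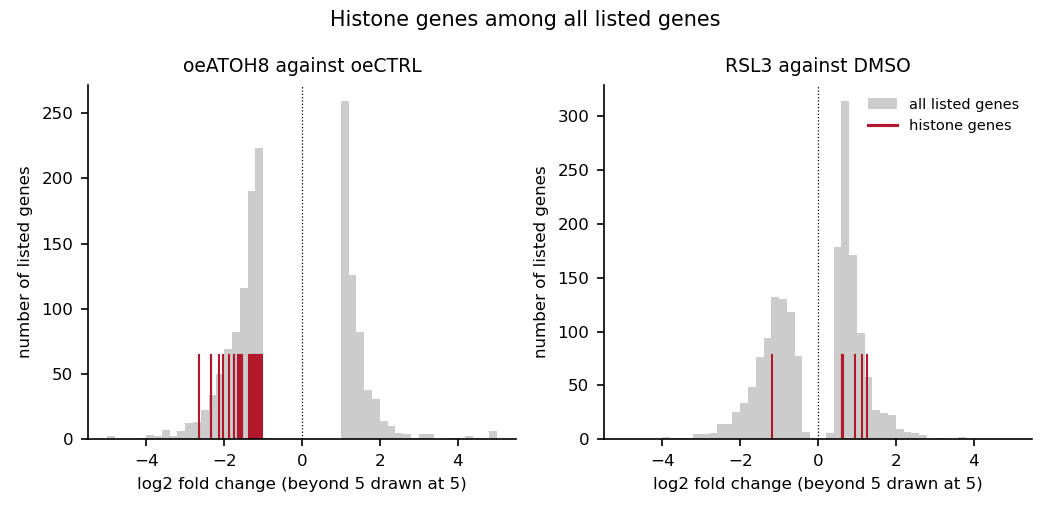
Distribution of log2 fold changes over all listed genes (grey bars, number of genes per bin; values beyond 5 drawn at 5) for oeATOH8 against oeCTRL, left, and RSL3 against DMSO, right, with red vertical lines for the histone genes. The left panel is empty between about -1 and 1, where the table holds no genes, and the red lines fall on its lower side.

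The second comparison asked which genes change in cells exposed to RSL3. Its table gives normalised read counts, reads divided by a size factor per library, and was tested with limma on log2(value + 1). Of the 7 histone genes described from it, 6 rose in RSL3-treated cells against DMSO-treated cells (H1-2, H2AC6, H2AC25, H2BC5, H3C4 and H4C12) and 1, the linker histone gene H1-5, fell. These calls are over the listed genes, 43.4% of which were called higher and 38.4% lower, and with every annotated gene counted (59792) none of the 7 passed, the limma adjusted p ranging from 0.494 to 1 (0.0581% of listed genes passed in each direction). RSL3 and DMSO libraries did not overlap for any of the 7, against 49.8% of listed genes not overlapping on the higher side and 37.2% on the lower. The median log2 fold change of the 7 genes was 0.65, and that of all listed genes 0.52.

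H1-2 had normalised counts of 10272, 8285 and 8375 in RSL3 libraries, against 6817, 5416 and 5463 in DMSO libraries. It rose by a log2 fold change of 0.61 (SE 0.19, limma adjusted p = 0.0370). H1-5, another replication-dependent H1 gene, had 15.9, 15.9 and 14.1 in RSL3 libraries, against 42.9, 38.2 and 28.8 in DMSO libraries (log2 fold change -1.19, SE 0.32, limma adjusted p = 0.0283).

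Among the core histones, H2AC25 had the highest log2 fold change. This gene lies on chromosome 1 (chr1:228457364-228457873), apart from the larger clusters, and shares none of its windows with other genes. It had normalised counts of 442, 293 and 369 in RSL3 libraries, against 138, 145 and 167 in DMSO libraries (log2 fold change 1.27, SE 0.23, limma adjusted p = 0.0142). H2AC6 had 859, 950 and 966 in RSL3 libraries, against 496, 663 and 625 in DMSO libraries (log2 fold change 0.65, SE 0.18, limma adjusted p = 0.0325). H2BC5 had 397, 310 and 355 in RSL3 libraries, against 219, 241 and 230 in DMSO libraries (log2 fold change 0.61, SE 0.19, limma adjusted p = 0.0370). For these 3 genes every RSL3 library exceeded every DMSO library on the normalised counts as given, but the margin depends on the scaling. With libraries scaled by totals of listed genes, H2AC25 had a log2 fold change of 0.80 (limma adjusted p = 0.0403). H2AC6 then had 0.17 (limma adjusted p = 0.618) and H2BC5 0.14 (limma adjusted p = 0.572). H3C4 had 76.7, 43.1 and 57.2 in RSL3 libraries, against 36.3, 19.9 and 34.0 in DMSO libraries (log2 fold change 0.96, SE 0.36, limma adjusted p = 0.0452). H4C12 had 53.6, 25.3 and 25.3 in RSL3 libraries, against 16.5, 9.16 and 19.2 in DMSO libraries (log2 fold change 1.13, SE 0.45, limma adjusted p = 0.0477). H3C4 and H4C12 were sparse, share all their windows with another gene, and were highest in RSL3 replicate 1; the span of H3C4 also overlaps H2AC7 on the same strand.

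**Figure D3:**
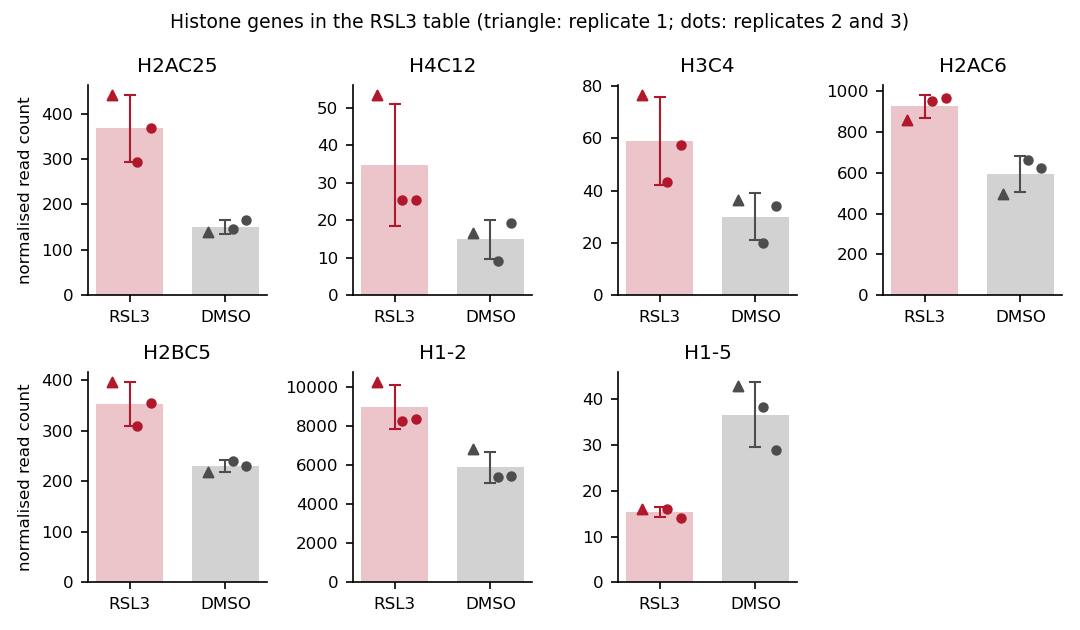
Normalised read counts of 7 histone genes in the RSL3 table, with RSL3 libraries left (red) and DMSO libraries right (grey) in each panel; bars are means, error bars are SD (n = 3), triangles are replicate 1 and dots replicates 2 and 3. The first 6 panels are higher in RSL3 cells, and the last, H1-5, is lower.

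These RSL3 values rest on libraries that were not evenly spaced. Over the recovered reads of all listed genes, chi-square over its degrees of freedom was 1.80 between RSL3 replicates 2 and 3 and 1.64 between DMSO replicates 2 and 3, and 59.1 to 101 for the pairs that included replicate 1. The log2 difference in replicate 1, against the mean of those in replicates 2 and 3, was 0.59 against 0.61 for H1-2, 1.67 against 1.07 for H2AC25, 0.79 against 0.57 for H2AC6 and 0.86 against 0.49 for H2BC5. It was 1.06 against 0.91 for H3C4, 1.64 against 0.88 for H4C12 and -1.37 against -1.10 for H1-5. With replicates 2 and 3 alone, all 7 genes kept their calls, in a fit whose spread comes from these closely alike libraries. The fit with the replicate number as a block also kept all 7 calls (limma adjusted p from 0.00264 to 0.0226). Leaving out 1 library, in fits without the block that keep the library of the same number in the other group, ended many calls. No histone gene was called without DMSO replicate 2 or without DMSO replicate 3, and H2AC25 alone was called without RSL3 replicate 2 or without RSL3 replicate 3. The median of the 7 log2 fold changes was 0.69 without DMSO replicate 2 and likewise without DMSO replicate 3, against 0.65 with all libraries, and H2AC25 stood at 1.25 without DMSO replicate 2 and 1.35 without DMSO replicate 3, against 1.27. The H3C4 and H4C12 calls also ended without RSL3 replicate 1, and the H4C12 call without DMSO replicate 1. With libraries scaled over the listed genes in 3 other ways, 1 or 2 of the 6 rises were called, and H1-5 stayed called lower. Listed protein-coding genes had a median GC content of 58.8% if higher and 48.3% if lower, from each gene's longest protein-coding transcript. The 6 higher histone genes had a median of 57.6% and H1-5 had 59.3%, from the shortest such transcript, so the measures differ. The part of GC content in these values was not tested.

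The 4 genes in both tables moved in opposite directions in the separate comparisons. H1-2 had log2 fold changes of -1.53 with oeATOH8 and 0.61 with RSL3, H2AC6 of -1.23 and 0.65, H2BC5 of -2.04 and 0.61, and H4C12 of -1.21 and 1.13. The size of the RSL3 values depends on the scaling. With libraries scaled by totals of listed genes they were 0.13, 0.17, 0.14 and 0.68 in the same order (limma adjusted p from 0.159 to 0.618). Of the 234 genes in both tables that are not histone genes, 43 (18.4%) moved in opposite directions. ATOH8 itself was higher in oeATOH8 cells and in RSL3-treated cells. It had 76508, 72569 and 76043 reads in oeATOH8 libraries, against 13, 10 and 4 in oeCTRL libraries, and normalised counts of 358, 429 and 470 in RSL3 libraries, against 26.4, 35.1 and 40.1 in DMSO libraries.

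**Figure D4:**
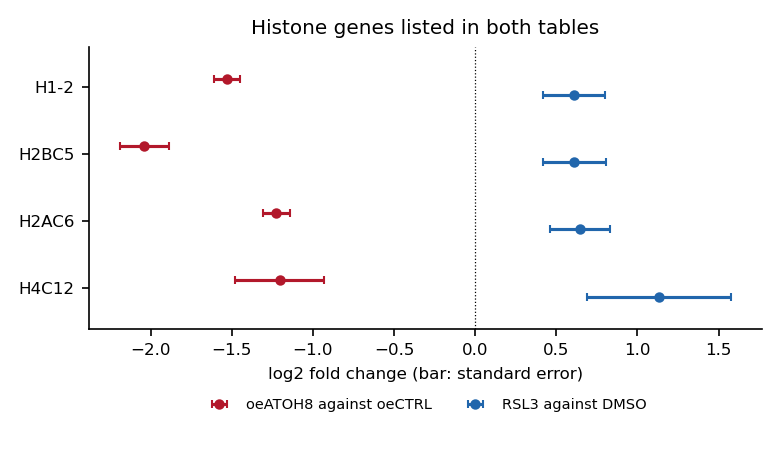
Log2 fold change with its standard error (horizontal bars) for 4 histone genes in both tables, for oeATOH8 against oeCTRL in red and RSL3 against DMSO in blue. For each gene the red point lies below 0 and the blue point above it.

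Genes that act on histones or mark the cell cycle stayed mostly outside the tables, and a gene outside was not assessed. Of 24 histone variant genes that the symbol rule leaves out, 0 were in the ATOH8 table and 3 in the RSL3 table, where all 3 rose over the listed genes (43.4% of which were called higher). With every annotated gene counted, 0 genes of any list given here passed in the RSL3 table. H2AX, which is phosphorylated at DNA breaks, had 8473, 5774 and 5653 in RSL3 libraries, against 4282, 3600.1 and 3423 in DMSO libraries (log2 fold change 0.80, SE 0.22, limma adjusted p = 0.030). H2AJ (log2 fold change 0.67) and MACROH2A2 (0.54) were the others. The 25 genes of histone mRNA transcription and processing, NPAT and SLBP among them, included 0 in the ATOH8 table and 1 in the RSL3 table, the SLBP-interacting factor MIF4GD, which rose (log2 fold change 0.65). Of 13 genes of histone mRNA decay, 0 were in the ATOH8 table and 1 in the RSL3 table, LSM4, a subunit of the Lsm ring, which rose (0.70). Of 24 histone chaperone and assembly genes, 0 were in either table. Of 49 histone-modifying enzymes, 0 were in the ATOH8 table and 3 in the RSL3 table, where the acetyltransferases EP300 (-0.88) and CREBBP (-0.49) fell and the methyltransferase KMT2C (-1.42) missed the threshold (limma adjusted p = 0.0724).

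Among 32 genes of DNA replication and S phase entry, the ATOH8 table held only UHRF1, a factor for maintaining DNA methylation, which rose (log2 fold change 1.03), and the RSL3 table only CCNE2, the S phase cyclin E2, which fell (-1.67). CCNE2 had normalised counts of 13.0, 11.3 and 10.3 in RSL3 libraries, against 23.1, 48.9 and 51.5 in DMSO libraries. Of 16 genes of G1 control, MYC rose in oeATOH8 cells (1.43), and CDK4 (0.75) and CCND3 (0.63) rose with RSL3. Of all genes listed for RSL3, 43.4% were called higher and 38.4% lower. Of 22 genes of G2 and mitosis, 3 were in the ATOH8 table and rose, namely UBE2C (1.56), CDC20 (1.25) and PLK1 (1.04), in a table with 41.4% of its genes called higher. None of them was listed for RSL3. In bulk RNA, a change in the share of cells in S phase and a change of histone mRNA per cell cannot be told apart.

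Some markers of cell identity moved in the same libraries. Of 13 DU145 and prostate epithelial markers, 2 were in each table and fell. They were CDH1 (-2.92) and KRT8 (-1.37) in oeATOH8 cells and CDH1 (-2.32) and EPCAM (-1.65) with RSL3. Of all listed genes, 58.6% were called lower in the ATOH8 table and 38.4% in the RSL3 table. The other epithelial markers were not listed and not assessed. Of 12 markers of other cell types, 3 were in the ATOH8 table, and their summed reads were 41685, 2410 and 9715 in oeATOH8 libraries, against 2, 3 and 7 in oeCTRL libraries. HBB made up much of this, with 24191, 1411 and 5593 reads in oeATOH8 libraries, against 0, 0 and 0 in oeCTRL libraries, with HBA1 and COL1A2 the others. The 9 remaining markers, the leukocyte marker PTPRC among them, were not listed. In the RSL3 table CD68 was the only one, at 4290, 1535 and 1498 in RSL3 libraries, against 1607, 829 and 787 in DMSO libraries (limma adjusted p = 0.0540, not called). The part of these markers in the histone values was not tested.

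Among the other named genes of the ATOH8 table with a mean of at least 50 reads, those with a profile over the 6 libraries most like the mean of 22 histone genes were ARNT2, SCD, EIF2AK2, GBP2 and PFKFB4. Their root mean square distance to it on the log2 scale was 0.028, 0.035, 0.046, 0.052 and 0.053. The histone genes themselves lay 0.056 to 0.702 from that mean. In SCD, a fatty acid desaturase, 13840, 13139 and 14052 reads in oeATOH8 libraries stood against 38026, 36081 and 37906 in oeCTRL libraries. A likeness over 6 libraries in 2 groups is largely a likeness in the size of the difference between the groups.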

How the data were processed

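RNA of 12 DU145 libraries was analysed from 2 tables that the authors deposited. As deposited, the RSL3 table holds a signal that the authors made by dividing read counts by a size factor per library, read from the values, since all of them were whole multiples of 1 step (100% within a tolerance of 0.01 reads). The ATOH8 table holds raw read counts as deposited, under column heads NC and OE, read as oeCTRL and oeATOH8. Both tables hold only genes the authors called changed. Per the submitters' processing notes, fastp, HISAT2, StringTie and DESeq2 were used with the build hg38 (GRCh38), and versions and roles are not given in the sources used here. Reads over listed genes ranged from 2523743 to 3096832 per library (RSL3 table) and from 1508188 to 2226518 (ATOH8 table). These sums are not library depths, which are not given in the sources used here.

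RSL3 rows took the name of an annotated gene on their strand covering 0.5 or more of the span, 1065 with the same RefSeq span, 701 by RefSeq overlap and 13 by GENCODE, and 31 stayed unnamed. Of 1424 ATOH8 rows, 1152 had Ensembl identifiers, 272 were loci assembled by the authors and 1141 had a symbol. H2AC18, H2AC19 and H3C2 were named through older GENCODE v29 names. The members and gene lists were chosen with earlier results of these data known. One gene that meets the rule is not reported here and is left out of all counts of histone genes. The other histone genes are named, with up to 4 called genes per other list, by smallest p, and the 5 genes nearest to the histone profile. KMT2C and CD68, outside this rule, were named after their values were seen.

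RSL3 values were tested with limma 3.58.1 on log2(value + 1) with a variance trend. A filter on low values (filterByExpr of edgeR, minimum count 10, total 15) left 1720 of 1810 genes. ATOH8 counts were tested with edgeR 4.0.16 (quasi-likelihood) over 1424 genes. Libraries were scaled within groups by the median ratio, and groups so that the gap without genes (-0.97 to 1.03 in the log2 ratio of group means) was centred on 0, which assumes that the authors' fold limits were symmetric. All p-values are two-sided and were adjusted by Benjamini-Hochberg over listed genes and, as an upper bound, over every annotated gene. These genes numbered 59792 for RSL3 and 62700 for ATOH8. For ATOH8, 12504 assembled loci were added, a number taken from the highest locus number among the identifiers. DESeq2 1.42.0, edgeR on recovered reads, limma on scaled counts, other pseudocounts, filters and scalings, omitted libraries and a replicate block were alternatives, under R 4.3.3. The code was tested on simulated data. The labels do not say whether replicates were separate cultures, so p-values measure the spread between these samples, which may be technical. In the RSL3 table, libraries with the same replicate number deviated together from their group means (r = 0.618, 0.485 and 0.461 over genes). In both groups replicate 1 stood apart from replicates 2 and 3, which were closely alike. These correlations therefore cannot tell whether replicates 2 and 3 pair number by number. The main fit ignores any pairing, and the block is reported as an alternative.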

Additional observations from a re-analysis of the deposited data

How the results depend on the processing

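No histone gene changed direction under an alternative that gave it a value. Requiring a mean of at least 50 gave none for H1-5, H3C4 and H4C12 in the RSL3 table and for H2AC8, H2BC8 and H3C8 in the ATOH8 table. In the RSL3 table, 746 listed genes were called higher and 660 lower. Scaling over listed genes moved RSL3 log2 fold changes downward, so that rises shrank and falls grew. The median of all listed genes shifted by -0.29 with TMM, -0.31 with relative log expression and -0.48 with totals. H1-5 went from -1.19 to -1.46, -1.48 and -1.64 in the same order. Listed genes called were 277 higher and 641 lower (TMM), 260 and 633 (relative log expression) and 154 and 482 (totals). Histone genes called higher then numbered 2, 2 and 1, with median log2 fold changes of 0.36, 0.34 and 0.17. With a mean of at least 50, where fewer genes were tested, 419 listed genes and 0 histone genes were called lower, H1-5 being below that mean. Counting every annotated gene left 1 higher and 1 lower, and 0 and 0 histone genes. At an unadjusted p under 0.05, all 7 histone genes passed by limma, and edgeR and DESeq2 on recovered reads called 6 higher and 1 lower over the listed genes. Without 1 library at a time, listed genes called higher ranged from 5 to 787 and lower from 1 to 704, histone genes called higher from 0 to 5 and lower from 0 to 1; the lowest counts came without DMSO replicate 2 or 3.

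In the ATOH8 table, 589 listed genes were called higher and 835 lower, and with relative log expression 589 and 418. The median of all listed genes shifted by 0.31 (TMM), 0.91 (relative log expression) and -0.46 (totals), and the histone median was -1.22, -0.62 and -1.99, or -1.35 with a mean of at least 50. Of the 25 lower histone genes, 17 stayed called with relative log expression; the calls lost were H2AC8, H2AC13, H2BC11, H2BC18, H3C10, H3C14, H3C15 and H4C12. Without 1 library at a time the histone median ranged from -1.64 to -1.32 and 25 were called lower each time.

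With the replicate number as a block, 923 listed genes were called higher and 785 lower in the RSL3 table, with 6 and 1 histone genes, and 589 and 835 in the ATOH8 table, with 0 and 25 histone genes; the block changed no call of a histone gene. In the ATOH8 table equal numbers correlated at 0.057, 0.048 and 0.088, so those samples share only a number. The sparse genes (H2BC8, H2AC8, H3C2, H3C8 and, in the RSL3 table, H1-5 and H4C12) are limited by few reads. The fits on replicates 2 and 3 alone and of edgeR with the block were added after seeing the data.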
